A study of Rattus norvegicus with 3 samples.

Results

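The genes described here are the receptors through which cells receive cytokine signals, the JAK kinases bound to many of those receptors, and the SOCS, CISH and PIAS proteins that hold the signal back. They were taken by a rule on gene symbols alone, although this group of genes was chosen with earlier results of these data known. The rule took interleukin receptor names, Il6st, the interferon alpha and gamma receptors, the colony-stimulating factor receptors, Osmr and Lifr. It also took the JAKs with Tyk2, the SOCS genes, Cish and the PIAS genes. This gave 51 of the 14218 genes that the array's annotation names with 1 symbol. The naming rule also brought in Il1rn and Il36rn, which are secreted antagonists and not receptors.

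The kidneys came from a rat model of donation after cardiac death in male Wistar rats of 370 to 508 g. Each donor kidney had 20 min of warm ischaemia and on average 17 ± 0.7 h of cold storage in University of Wisconsin solution, and was then perfused from the femoral artery of a recipient for 5 h 43 min ± 21 min (the labels do not say what the errors are). Recipients had an infusion of normal saline at 1 ml per h (control), heparin at 100 U per ml per h, or peptide 2 at 0.5 mg per ml, a peptide modelled on the part of the chemokine CCL5 that binds heparin. Heparin was not used as an anticoagulant in the surgery. There were 7 recipients per group, and RNA of 3 kidneys per group was pooled in equal amounts and hybridised to 1 array per group, so no difference below has a replicate check and none was tested. The comparisons address whether either agent altered inflammatory gene expression in the reperfused kidney.

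Cytokine receptors are assembled from chains, and the combination of chains decides which cytokine is read. Class I and class II receptors have no enzyme of their own: ligand binding brings JAK kinases together, which phosphorylate STAT transcription factors, and STATs then switch on genes that include Cish, Socs1 and Socs3, whose products shut the receptor down again. Receptors of the IL-1 and IL-17 families signal instead through adaptor proteins towards NF-kB, and Csf1r is a receptor tyrosine kinase. In the kidney, gp130 (Il6st) and the interferon receptors are found widely, whereas Il7r and Il10ra are known mostly from leukocytes.

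Values are log2 expression per probe set, a set of short probes for 1 transcript, and where a gene had several, the brightest on average stands for it. A gene was called measured where its value was at or above the array's median (4.14 control, 4.16 heparin, 4.14 peptide). Of the 51 genes, 36 were measured on all 3 arrays and 15 were below the median on all 3. Levels of different probe sets cannot be set against each other, so only differences between arrays are compared. Kidney markers were present: all 4 proximal tubule markers, both thick ascending limb markers and both collecting duct markers were measured, as was Nphs1 of podocytes. Of leukocyte markers, all 3 general ones, 6 of 7 for macrophages and 4 of 4 on the array for neutrophils were measured, but only 1 of 6 for T cells (Cd3e), 0 of 4 for NK cells and 0 of 2 for B cells. A larger excess of signal near the 3' end of a transcript over signal near its 5' end is a sign of lower RNA integrity. For beta-actin this excess was 2.33 log2 units on the control, 2.95 on the heparin and 2.34 on the peptide array. For GAPDH it was 0.36, 0.32 and 0.37, and for hexokinase 2.18, 2.18 and 2.28. The part of RNA integrity in the differences below was not tested.

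Feedback inhibitors are controlled at their promoters by the STATs, so these sequences are shown first for the pair of members whose promoters hold the most matches. The windows run from 250 bases before to 50 bases after the annotated start, from RefSeq on the GRCr8 assembly, and 36 of the 51 members had one. Capitals mark the STAT motif TTCNNNGAA, which reads the same on both strands, and the interferon response motif, a pair of GAAA blocks with any 2 bases between them, searched on both strands. The Cish window lies at chr8:116850719-116851018, plus strand, and the Socs1 window at chr10:5389324-5389623, plus strand.
Cish: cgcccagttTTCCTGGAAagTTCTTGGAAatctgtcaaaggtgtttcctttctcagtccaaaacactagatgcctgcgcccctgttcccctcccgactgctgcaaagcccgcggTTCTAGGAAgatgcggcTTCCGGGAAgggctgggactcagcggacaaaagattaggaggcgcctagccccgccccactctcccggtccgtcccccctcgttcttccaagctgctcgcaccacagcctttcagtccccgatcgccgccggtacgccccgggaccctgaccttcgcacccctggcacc
Socs1: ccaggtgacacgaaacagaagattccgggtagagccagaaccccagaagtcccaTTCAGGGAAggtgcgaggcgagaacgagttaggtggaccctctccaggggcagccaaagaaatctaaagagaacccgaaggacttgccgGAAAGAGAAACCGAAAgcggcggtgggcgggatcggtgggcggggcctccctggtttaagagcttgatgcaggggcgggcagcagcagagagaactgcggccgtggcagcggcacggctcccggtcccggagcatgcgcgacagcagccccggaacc
The Cish window held 4 STAT matches, starting 241, 230, 136 and 119 bases before the start, and Cish was 1 of only 2 genes with 4 or more among the 27457 with a window. The Socs1 window held 1 STAT match, 196 bases before the start, and 2 overlapping interferon response matches, 107 and 101 bases before it. A window with both motifs was found for 0.561% of genes. Over the members as a whole 4 of 36 (11.1%) held a STAT match against 9.39% of all genes, and 3 of 36 (8.33%) held an interferon response match against 4.12%. The other members with a STAT match were Ifnar2 and Il10rb, and those with an interferon response match were Il1rap and Il6st. The matches are descriptions of the letters in these windows.

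Few members differed much between the pools. In heparin against control 2 of 36 measured members, Il10ra and Il1r1, were at least 1.5-fold higher, where 3.04% of all 9236 measured genes were, and 1, Ifnar1, was at least 1.5-fold lower, where 3.37% were. Ifnar1 also passed 2-fold, which 0.747% of genes did in that direction, and 0 members were 2-fold higher (1.06% of genes). In peptide against control 1 member, Il10ra, was at least 1.5-fold higher (2.11% of 9268 genes) and 2, Ifnar1 and Il7r, were at least 1.5-fold lower (0.917%). At 2-fold, 0 members were higher with peptide (0.723% of genes) and 0 lower (0.119%). Between heparin and peptide 0 members were 1.5-fold apart in either direction, where 1.62% of 9240 genes were higher and 4.57% lower in heparin (0.281% and 0.844% at 2-fold). With 36 members, 1 or 2 genes is 2.78% or 5.56% of them. The shares of members past 1.5-fold with heparin differ from the background by no more than 1 gene, and the 2 lower with peptide are a larger share than the background but a count of only 2. The median difference of the members was 0.00 in all 3 comparisons, as it was over all measured genes. The treatments share the control array, so their differences from it are not independent of each other.

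**Figure D1:**
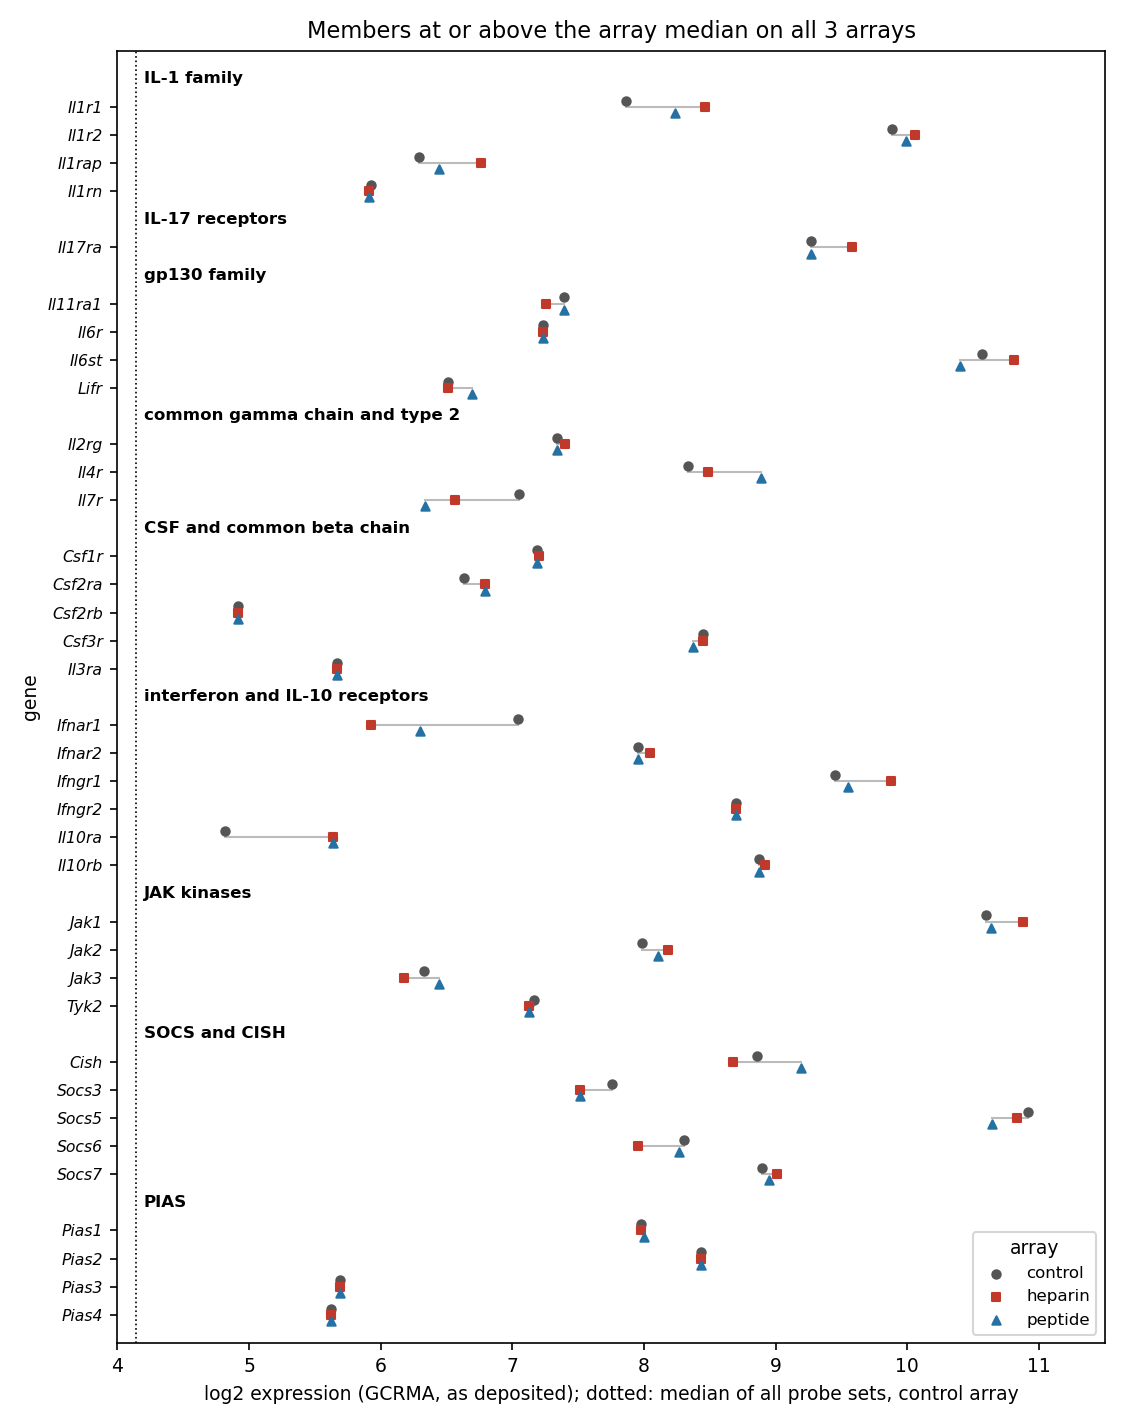
Log2 expression (horizontal axis) of the 36 members at or above the array median on all 3 arrays, by family, with 1 symbol per array and a grey line spanning the 3 values. Most lines are short: the median range is 0.17, and the longest is that of Ifnar1 (1.12).

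Deposited values often coincide between arrays. Of the 36 members, 7 had the same value on all 3 arrays (within 0.001) and 13 had it on 2 of them, against 2110 and 2956 of the 9231 genes measured on the 3 arrays. The members' median range over the 3 arrays was 0.17 and that of all genes 0.14. A difference of 0.00 can come from how probe sets are summarised and does not show equal abundance.

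Counts of direction, most of them from differences near 0, depend on scaling and were not tested. Of 22 measured receptor chains 13 were higher in heparin than in control, 3 were lower and 6 were identical, whereas of 5 measured SOCS and CISH genes 1 was higher and 4 were lower. Over all members 44.4% were higher and 27.8% lower, and over all measured genes 25.6% were higher and 43.9% lower. After quantile normalization 60.2% of all genes were higher and 39.1% lower, receptor chains stood at 19 higher and 3 lower, and SOCS and CISH genes again at 1 and 4. In peptide against control the receptor chains were divided into 8 higher, 4 lower and 10 identical, and the SOCS and CISH genes into 2 higher and 3 lower. Over all measured genes 31.7% were higher with peptide and 28.3% lower. After quantile normalization the balance of the receptor chains turned round, to 9 higher and 13 lower with peptide, beside 35.9% and 60.6% of all genes. The SOCS and CISH genes stayed at 2 and 3.

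**Figure D2:**
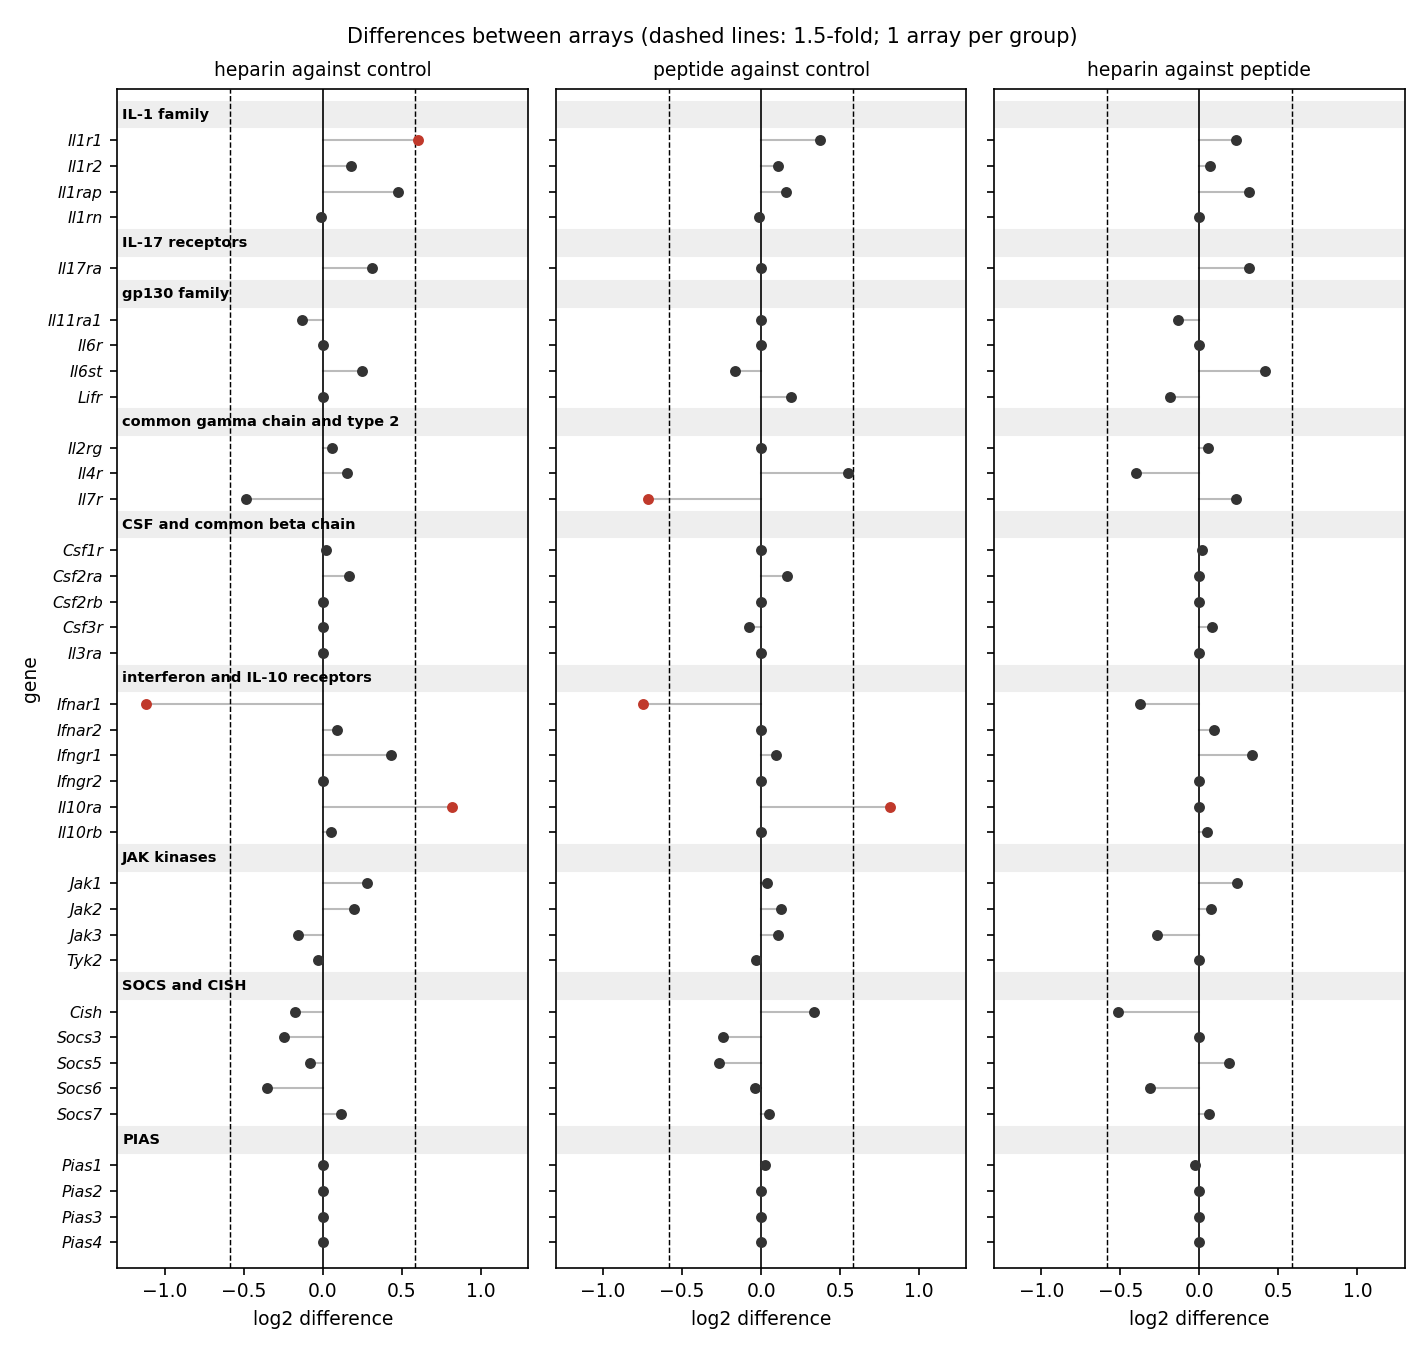
Log2 differences of the 36 measured members in the 3 comparisons, with genes in rows by family and dashed lines at 1.5-fold. Red points lie beyond 1.5-fold: Il1r1, Ifnar1 and Il10ra in heparin against control, Il7r, Ifnar1 and Il10ra in peptide against control, and none between heparin and peptide.

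Interferon and IL-10 receptors held the largest differences. Ifnar1, a chain of the receptor for type I interferons, read 7.05 in control, 5.93 in heparin and 6.30 in peptide, 2.17-fold lower with heparin and 1.68-fold lower with peptide. Both treated pools thus lay below control, but this rests on 1 of 6 probe sets of the gene. The other 3 that were above the median differed by at most 0.04 between arrays: one read 5.93, 5.88 and 5.93 in control, heparin and peptide, another 5.02 on every array, and the third 4.23, 4.22 and 4.22. The remaining 2 were below the median and had identical values. Ifnar2, the partner chain, read 7.96 in control, 8.05 in heparin and 7.96 in peptide, and its second probe set read 7.64, 7.81 and 7.69. The 1 Ifnar1 probe set that stands for the gene was lower in heparin than in control, whereas Ifnar2 was higher by 0.09.

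Ifngr1, the ligand-binding chain of the interferon gamma receptor, read 9.45 in control, 9.88 in heparin and 9.55 in peptide. Its highest value was in heparin, by 0.43 over control, which is under 1.5-fold. Ifngr2, its signalling partner, read 8.70 on all 3 arrays. Il10ra, the ligand-binding chain for the anti-inflammatory cytokine IL-10, read 4.82 in control and 5.64 in both heparin and peptide, a difference of 0.82 or 1.76-fold. Its control value was not far above the array median, and its other probe set was at the array's lowest value of 2.18 throughout. Il10rb, shared by the IL-10, IL-22 and lambda interferon receptors, read 8.87, 8.92 and 8.87. Il20rb and Il22ra2, a soluble receptor that captures IL-22, were below the median on every array.

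Il10ra is known mostly from leukocytes, and leukocyte markers were read beside it. The pan-leukocyte marker Ptprc was identical on all arrays at 9.49, and the unlogged values of the 3 general leukocyte markers summed to 1446 in control, 1529 in heparin and 1340 in peptide. The 7 macrophage markers summed to 12118, 16783 and 12504, with Cd163 below the median on every array. That sum is made up mostly of Lyz2, which read 13.46, 13.95 and 13.50. The markers were not uniform, since Cd68 differed by 0.48 with heparin, Csf1r by 0.02 and Aif1 by -0.52. The unlogged values of the 4 neutrophil markers on the array summed to 12640, 11829 and 15325. That sum is made up mostly of S100a8, at 12.13, 12.01 and 12.51, and S100a9, at 12.92, 12.84 and 13.16. The other neutrophil markers did not follow it: Cxcr2 read 4.82 on all arrays and Csf3r 8.45, 8.45 and 8.37. The part of leukocyte number in the Il10ra difference was not tested. In whole tissue, more cells of a type and more RNA per cell cannot be told apart.

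In the IL-1 family the receptor that signals and its partner chain were highest in heparin. Il1r1, the signalling receptor for IL-1, read 7.86 in control, 8.47 in heparin and 8.24 in peptide, 1.52-fold higher with heparin and 0.37 higher on the log2 scale with peptide. This was just past the 1.5-fold line at 0.58, and the other 2 probe sets of the gene were below the median. Il1rap, the accessory chain without which Il1r1 does not signal, read 6.29, 6.76 and 6.45, which is 0.47 higher in heparin. Il1r2, a decoy that binds IL-1 without signalling, read 9.88, 10.06 and 9.99. Il1rn, the antagonist that occupies the receptor, read 5.93, 5.91 and 5.91. The receptor, its partner and the decoy thus had the same order on the arrays, control lowest and heparin highest, and the antagonist did not share it. How many of all genes had that order was not counted. Il1r2 was only 0.18 above control in heparin and 0.11 in peptide. The other probe set of Il1rap was below the median, at 3.22 on every array. Il1b, a ligand, was named after its value was seen and read 9.41, 9.69 and 9.14, so that it too was highest in heparin but lowest in peptide. Il1rl1, the receptor for IL-33, and Il1rl2 and Il36rn of the IL-36 branch were below the median throughout.

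Il17ra, the common chain of the IL-17 receptors, read 9.27 in control, 9.58 in heparin and 9.27 in peptide. It was 0.31 higher in heparin than in both other pools, and Il17rc and Il17re were below the median on every array.

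Differences in the gp130 family were small, and Il6st differed most from control with heparin and Lifr with peptide. Il6st, which encodes gp130, the signal-transducing chain for IL-6, IL-11, LIF and related cytokines, read 10.57 in control, 10.81 in heparin and 10.40 in peptide. Its 4 probe sets were all measured, and heparin exceeded control on each of them, by 0.08 to 0.38. Against peptide, 3 of the 4 were higher in heparin, by 0.26 to 0.44, and the fourth was identical. The endothelial marker Kdr had the same order of pools, at 10.27 in control, 10.59 in heparin and 9.71 in peptide, and Pecam1 read 8.65 on all arrays; the part of endothelium in the Il6st and other heparin-high values was not tested. Of the 2 endothelial markers on the array, both measured, the unlogged values summed to 1634, 1944 and 1240. Il6r, the IL-6-binding chain, read 7.23 on all 3 arrays. Lifr, the LIF-binding chain, read 6.51, 6.51 and 6.70, and its second probe set read 5.50, 5.50 and 5.51. Il11ra1, which binds IL-11, read 7.39, 7.26 and 7.39. Il27ra was below the median. The ligand Il6, named after its value was seen, read 11.24, 11.87 and 11.59, a difference of 0.62 with heparin and 0.35 with peptide.

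Among receptors of lymphocyte growth factors, Il7r and Il4r differed most. Il7r, the IL-7-binding chain that maintains T cells, read 7.05 in control, 6.57 in heparin and 6.34 in peptide, 1.64-fold lower with peptide and 0.48 lower on the log2 scale with heparin. Its second probe set had the same order at 5.74, 5.63 and 5.27, with a difference of -0.46 in peptide and -0.10 in heparin. T cell markers could not be read beside it: Cd2, Cd3d, Cd3g, Cd4 and Cd8a were below the median and Cd3e read an identical 4.76 on all arrays, so the sum of the 6 unlogged values, 63.9 on each array, carries no information. The part of T cell number in the Il7r values was not tested. Il4r, the chain that binds IL-4 and also serves IL-13, read 8.34 in control, 8.49 in heparin and 8.89 in peptide. At 0.55 above control in peptide it lay just under 1.5-fold, and it has a single probe set. Il2rg, the common gamma chain, read 7.34, 7.40 and 7.34. Il2ra, Il2rb, Il9r and the IL-13 decoy Il13ra2 were below the median on every array.

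**Figure D3:**
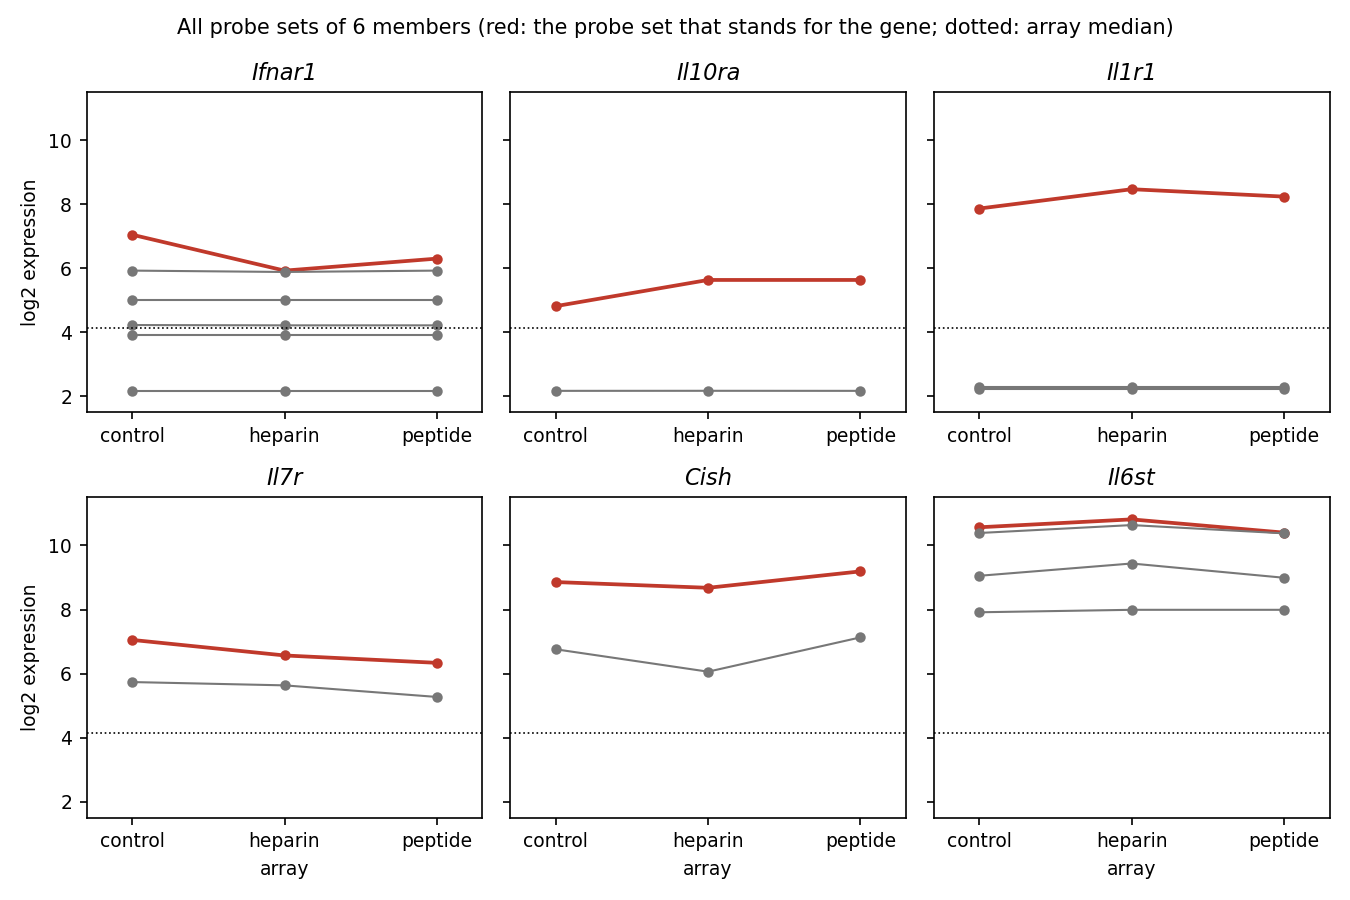
Log2 expression (vertical axis) on the control, heparin and peptide arrays for every probe set of Ifnar1, Il10ra, Il1r1, Il7r, Cish and Il6st, 1 line each, with the one that stands for the gene in red and the array median dotted. The lines run alike for Il7r and Cish, whereas the lower Ifnar1 value in both treated pools appears in 1 of its 6 lines.

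Receptors of the colony-stimulating factors, which direct the growth and survival of myeloid cells, differed least of the receptor groups with more than 1 measured chain: no difference exceeded 0.17. Csf1r, the macrophage growth factor receptor, read 7.18 in control, 7.20 in heparin and 7.18 in peptide. Csf3r, the receptor for the granulocyte factor, read 8.45, 8.45 and 8.37. Csf2ra, which binds GM-CSF, read 6.63, 6.79 and 6.79. Csf2rb, the shared beta chain, read 4.91 and Il3ra 5.67 on all arrays, and Il5ra was below the median.

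All 4 JAK kinases were measured and none was 1.5-fold apart. Jak1, used by most class I and class II receptors, read 10.60 in control, 10.88 in heparin and 10.64 in peptide. Its second probe set read 9.04, 9.09 and 9.03, so the difference of 0.28 with heparin was 0.04 there. Jak2 read 7.98, 8.18 and 8.11, and Jak3, the partner of the common gamma chain, read 6.33, 6.17 and 6.44. Tyk2, which serves the type I interferon receptor, read 7.16, 7.13 and 7.13.

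Of the 7 feedback inhibitors 5 were measured. Cish, the first-described STAT5-induced inhibitor, whose promoter is printed above, read 8.86 in control, 8.68 in heparin and 9.19 in peptide. Its second probe set read 6.76, 6.06 and 7.13. On both probe sets heparin was lowest and peptide highest, with a log2 difference between heparin and peptide of -0.51 on the first and -1.07 on the second. Socs3, the inhibitor induced by STAT3 that binds gp130 and JAKs, read 7.76, 7.51 and 7.51, about 0.25 lower in heparin and 0.24 lower in peptide. Socs1, which blocks JAKs and restrains interferon signalling, was below the median on both probe sets: the higher one read 2.95 on every array and the other 2.26 in control and heparin and 3.27 in peptide. Socs2, which restrains growth hormone signalling, was at 2.18 on every array.

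The larger SOCS proteins are less tied to cytokine feedback. Socs6 read 8.31 in control, 7.96 in heparin and 8.27 in peptide, so heparin stood 0.35 below control. Socs5 read 10.92, 10.83 and 10.65, with its second probe set identical on all arrays. Socs7 read 8.90, 9.01 and 8.95, and on its second measured probe set heparin was 0.32 and peptide 0.12 above control. The PIAS proteins, which inhibit STATs in the nucleus and act as SUMO ligases, differed by at most 0.03: Pias1 read 7.97 in control and heparin and 0.03 more in peptide, and Pias2 at 8.43, Pias3 at 5.69 and Pias4 at 5.62 were identical on all arrays.

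Probe sets of a gene on an array read the same pooled RNA. Their agreement is thus a check on the probes only and does not stand in for replicates. With heparin against control, 13 members had more than 1 measured probe set: in 6 all went the same way (Cish, Ifnar2, Il6st, Il7r, Jak1 and Socs7), in 7 at least 1 was identical, and in 0 did they go opposite ways. With peptide against control 4 went the same way, 7 had an identical one, and 2 (Il6st and Jak1) went opposite ways by small amounts. The same counts were not made over all genes, so there is no background to read them against.

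The other genes of the pathway, from lists of ligands, STATs and STAT targets, set these small differences in context. Of 7 genes for STAT factors and Irf9 analysed here, 6 were measured. Stat2, a part with Irf9 of the factor activated by type I interferon, was at least 1.5-fold higher in both comparisons with control, by 1.11 with heparin and 0.91 with peptide, and its second probe set differed by 1.10 and 0.76. Stat3 read 10.73 in control, 10.88 in heparin and 11.09 in peptide. Its second probe set differed by -0.01 with heparin and 0.24 with peptide. Irf9 read 8.73, 9.03 and 9.03, with larger differences of 0.90 and 0.58 on its second probe set, and Stat5a, Stat5b and Stat6 were identical on all arrays. Targets of the type I interferon factor were at least 1.5-fold higher in 8 of 9 measured genes with heparin, with a median of 1.34, and in 8 of 9 with peptide, with a median of 1.23. Of all measured genes 3.04% were so with heparin and 2.11% with peptide. The list was chosen with earlier results of these data known. The remaining gene, Mx2, an antiviral GTPase, differed by -1.17 and -0.45, while its other probe set went the opposite way, by 2.46 and 1.94. The median over all measured genes was 0.00. Of the receptor chains for type I interferon, Ifnar1 differed by -1.12 with heparin and -0.75 with peptide on the probe set that stands for it, and Ifnar2 by 0.09 and 0.00. Ifnb1, named after its value was seen, was below the median in control (3.31) and read 5.16 in heparin and 6.38 in peptide.

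Of 16 measured targets of IL-6 and STAT3, heparin had 0 beyond 1.5-fold above control and 2 below it (Lcn2 and Fga), with a median of -0.25. Peptide had 1 above (Cebpb, at 0.65) and 2 below (Lcn2 and Fgb), with a median of 0.00. Of all measured genes 3.04% were above and 3.37% below with heparin, and 2.11% and 0.917% with peptide. Lcn2, an iron-binding protein of injured tubules and neutrophils, was lower in both, with differences of -1.03 and -1.18. The pools parted between the agents: in heparin against peptide 5 of 16 targets were at least 1.5-fold lower and 1 was higher, where 4.57% and 1.62% of all genes were. The 5 were Fga, a fibrinogen chain, at -1.41 (-0.28 on its other probe set), the transcription factors Cebpb at -1.03 and Junb at -0.72, the proto-oncogene Myc at -0.63 and the kinase Pim1 at -0.63, and Junb and Myc are named after their values were seen. Fgb, another fibrinogen chain, went the other way at 0.75. Of 6 targets of STAT5, all measured, 2 were at least 1.5-fold lower in heparin than in peptide, the cyclin Ccnd1 at -0.83 (-0.76 and -0.59 on its other probe sets) and again Pim1, and the gp130 ligand Osm differed by 0.47. Cish had heparin lowest and peptide highest, as had 2 of the 36 members (the other was Jak3) and 14.8% of all genes measured on the 3 arrays. That order was found in 3 of the 6 STAT5 targets (Bcl2l1, Ccnd1 and Pim1) and in 5 of the 16 IL-6 and STAT3 targets. Pim1 is in both lists, and the lists were looked at for this order after their values were seen. Pim1 read 5.09 in control, 4.69 in heparin and 5.32 in peptide, and Osm read 5.03, 5.68 and 5.21. Both genes were below the 60th percentile of every array, not far above the median. For Bcl2l1 peptide stood only 0.02 above control. Its other measured probe set did not have the order, at 8.38 in control, 7.37 in heparin and 8.04 in peptide. Of the other STAT5 targets, Osm was highest in heparin, Bcl6 was lowest in peptide, and Igf1 was lowest in control.

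Of 33 ligands on the array, 17 were measured in each comparison with control. Past 1.5-fold with heparin were 3.04% of all genes on the higher side and 3.37% on the lower, and with peptide 2.11% and 0.917%. With heparin 3 were at least 1.5-fold higher, Il18 (0.89), Osm (0.66) and Il6 (0.62), and 3 were at least 1.5-fold lower, the IL-23 subunit Il23a (-1.49), the gp130 ligand Clcf1 (-0.80) and Il24 (-0.64), the last named after its value was seen. With peptide 1 was higher, Il23a (1.42), and 2 were lower, Clcf1 (-0.80) and Il24 (-0.64). Some of these values were not far above the median. Below the 60th percentile were Osm on every array, Il23a in heparin (5.17) and Il24 in both treated pools (5.38). Ifng, Il10, Il2, Il4 and Lif were below the median on all arrays. Of 7 further receptors on the array, 4 were measured, and Prlr, the prolactin receptor, which signals through JAK2 and STAT5, read 8.71 in control, 7.68 in heparin and 8.69 in peptide, a difference of -1.03 with heparin and -1.01 between heparin and peptide. Its other 2 probe sets differed by -0.50 and -1.39 with heparin and by -0.50 and -0.89 between heparin and peptide. Of 16 other measured regulators, Usp18, which detaches JAK1 from Ifnar2, was higher by 2.21 with heparin and 1.84 with peptide, and the adaptor Sh2b2 differed by -0.45 and -1.20.

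**Figure D4:**
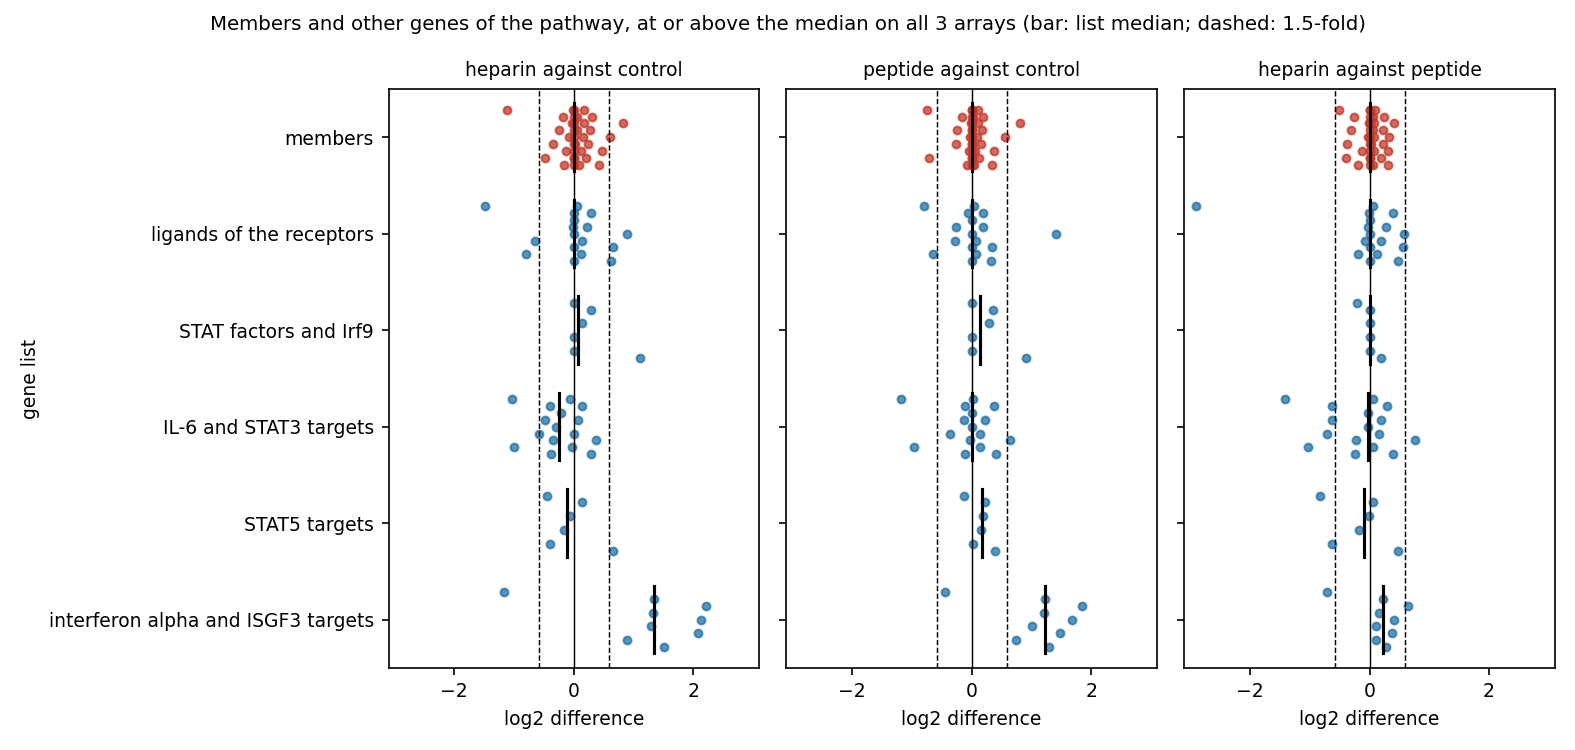
Log2 differences (horizontal axis) of the 36 measured members (red) and of 5 lists of ligands, STATs and STAT targets (blue), 1 point per gene, with list medians as black bars and 1.5-fold as dashed lines. The members lie around 0.00 in each panel, while the targets of the type I interferon factor have medians of 1.34 and 1.23 against control.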

How the data were processed

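Expression was read on 3 arrays, 1 per group, each with pooled RNA of 3 kidneys. The authors deposited log2 expression values per probe set. Per the submitters' processing notes GCRMA was used. Not given in the sources used here are its version, its settings and how arrays were normalized to each other. The platform annotation gave 1 symbol for 20832 of the 31099 probe sets. All 51 members matched a RefSeq gene ID with the same symbol. Members had 78 probe sets, and the one with the highest mean was used. Arrays were compared by subtracting log2 values, for genes at or above the median on both. With 1 array per group no test was made, and arrays limit precision by their number. The members and lists were chosen with earlier results of these data known. Named were all members at least 1.5-fold apart, a fixed set of members whatever their values, and up to 4 genes per list. Il13ra1, Osmr, Il18r1, Il15ra and Socs4 were not analysed here. The counting was tested on simulated data. Alternatives were other filters (40th and 60th percentile, none), averaging each gene's probe sets, probe sets without a suffix for shared sequence, quantile normalization, an offset of 32 and a 2-fold threshold. Python 3.11.15 with pandas 2.3.3 was used.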

Additional observations from a re-analysis of the deposited data

How the results depend on the processing

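No paired analysis was possible because each group has 1 array. The small counts depend on the settings. With heparin against control, the members at least 1.5-fold higher, 2 as reported, numbered 1 with a filter at the 60th percentile (Il10ra was lost) and 0 with averaging each gene's probe sets, with the offset of 32 and at 2-fold. With averaging, Il10ra and Il1r1 fell below the median in control, so they were no longer measured in either comparison with control. The 1 lower, Ifnar1, became 0 with averaged probe sets (-0.20) and without probe sets that carry a suffix (-0.04). With peptide, the 1 higher became 0 with the 60th percentile filter, the mean of probe sets, the offset and 2-fold, and the 2 lower became 1 with averaged probe sets and without suffixed probe sets (Il7r in both) and 0 with the offset and at 2-fold. Between heparin and peptide 0 members were lower, and 1, Cish, with averaged probe sets. Quantile normalization kept all 6 counts and moved the members' medians to 0.0595 with heparin against control and 0.0718 between heparin and peptide, beside 0.0319 and 0.0437 over all genes. The other medians stayed within 0.05 of those reported. It also turned the balance of all genes past 1.5-fold with heparin to 328 higher and 257 lower, from 281 and 311. For single members, 725 of 733 values under an alternative moved by less than the SD of all gene differences in that comparison. The 8 others were those of Ifnar1 with other probe sets and Il10ra with the offset (0.44), and 0 differences past 1.5-fold changed sign. For the members and a set of list genes together, 1722 values moved by less than that SD and 31 did not, so some list genes also depend on the settings. The other filters cannot change a member's difference, and members that fell below the filter were not counted. The share that stayed is therefore no measure of how robust the differences are. There is 1 array per group, and genes near or below the array median cannot be read.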
